A study of Homo sapiens with 16 samples.

Results

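The regions described here are long stretches of acetylated chromatin that ranked among the largest of the Ewing sarcoma line TC-32 and met no region ranked as large in a second Ewing line, TC-71. In each line's list of H3K27ac domains on chromosomes 1 to 22 and X, neighbouring domains no more than 12.5 kb apart were joined into clusters, and the 600 clusters with most acetylated bases were kept. Of the 600 TC-32 clusters, 371 (61.8%) overlapped none of the 600 TC-71 clusters and form the set, out of 22370 joined TC-32 clusters of any size. The other 229 overlapped a large TC-71 cluster and are called common clusters, and 364 of the TC-71 clusters overlapped no large TC-32 cluster. The set is defined by rank in both lists, so it holds clusters that are large in TC-32 only, and 311 of the 371 still contained some acetylated TC-71 chromatin. The name "specific to TC-32" therefore holds for size and not for presence.

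TC-32 and TC-71 are established cell lines of Ewing sarcoma, a bone and soft tissue tumour in which the EWSR1 gene is typically fused to a gene of the ETS family. The labels give the phase of therapy as diagnosis for TC-32 and as after chemotherapy for TC-71, and both lines were grown in the same RPMI-1640 medium with serum, with no other treatment or genotype named. Each line is 1 line from 1 tumour, so a difference between them cannot be told apart from a difference between these tumours. Chromatin of each line was precipitated with antibodies against H3K27ac, SMC1 or the germ-line CTCF paralog BORIS, with an input alongside, in 2 samples per line and antibody and 16 samples in all. Each line and antibody has 1 deposited peak list that both samples share, 6 lists in all, so no value has a replicate error and no test between the lines could be made. Intervals beside shares are exact 95% intervals (Clopper-Pearson), they cover counting error only, and domains or peaks of 1 cluster are not independent. The TC-32 lists are the longer ones, with 36355 H3K27ac domains and 32720 SMC1 peaks against 26334 and 18264 in TC-71. The read depth behind the lists is unknown.

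Acetylation of lysine 27 on histone H3 is carried by active promoters and enhancers. Dense clusters of acetylated elements, often called super-enhancers or stretch enhancers, are known to lie near genes that define a cell's identity, and in Ewing sarcoma the fusion protein creates part of them. SMC1 is a core subunit of the cohesin ring, which holds chromatin loops together, mostly at CTCF sites and to a lesser degree at active enhancers.

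Some of the clusters lie in bands known for developmental transcription factors, among them 12q24.21 for TBX5, a T-box factor of the heart and forelimb, 13q34 for SOX1, a factor of the early neural plate, and 1q24.2 for PRRX1, a homeobox factor of limb and connective tissue mesenchyme. Their promoters, from 250 bases before to 50 after the start of the gene, are shown because the clusters described at these bands had almost no acetylation in TC-71. The sequences are those of RefSeq on GRCh38.p14 in the direction of the gene, with CG dinucleotides in capitals. The peak lists use hg19, so the position of a gene within a cluster was not tested and the genes are named only as textbook background of the band.
TBX5 promoter: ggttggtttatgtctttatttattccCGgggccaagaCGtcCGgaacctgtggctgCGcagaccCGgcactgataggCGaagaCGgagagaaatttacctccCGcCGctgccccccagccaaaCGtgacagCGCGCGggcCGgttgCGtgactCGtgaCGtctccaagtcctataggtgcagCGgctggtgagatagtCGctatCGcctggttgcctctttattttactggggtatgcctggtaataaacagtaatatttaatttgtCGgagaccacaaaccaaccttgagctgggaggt
SOX1 promoter: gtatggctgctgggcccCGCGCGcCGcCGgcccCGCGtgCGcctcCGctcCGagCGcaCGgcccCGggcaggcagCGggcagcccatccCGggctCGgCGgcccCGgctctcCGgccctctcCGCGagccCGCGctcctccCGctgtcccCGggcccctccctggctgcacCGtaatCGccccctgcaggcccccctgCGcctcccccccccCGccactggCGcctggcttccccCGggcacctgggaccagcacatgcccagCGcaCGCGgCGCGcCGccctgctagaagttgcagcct
PRRX1 promoter: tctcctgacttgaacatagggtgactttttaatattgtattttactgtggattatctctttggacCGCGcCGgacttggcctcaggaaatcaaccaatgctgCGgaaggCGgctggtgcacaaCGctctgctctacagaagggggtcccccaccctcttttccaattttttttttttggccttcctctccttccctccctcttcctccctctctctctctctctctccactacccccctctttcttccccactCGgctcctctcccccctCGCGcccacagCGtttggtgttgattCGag
The SOX1 promoter holds 37 CG dinucleotides in 300 bases and 80.0% G or C, and 11.28% of the 35116 RefSeq promoters of this length hold as many. TBX5 holds 21 (39.5% hold as many) and PRRX1 holds 11 (54.7%), beside a median of 14. The largest acetylated domain of the set lies in 7q32.3, the band of the microRNA genes MIR29A and MIR29B1. The mature forms of this pair, known for repressing collagen and other matrix transcripts, share their seed (bases 2 to 8, in capitals).
hsa-miR-29a-3p: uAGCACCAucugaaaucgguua
hsa-miR-29b-3p: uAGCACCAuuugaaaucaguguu

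The clusters were long and patchy. Acetylated bases per cluster ranged from 13.265 to 88.2 kb with a median of 17.3 kb, spread over a median span of 35.8 kb and a median of 6 domains, and they added up to 7.94 Mb. Domains filled a median of 55.0% of the span. Common clusters were chosen from the same 600 and had a median of 20.9 kb and a fill of 61.4%. Acetylated length chose these members, so the values describe them and are not tested. At the limit of the set, the last 3 clusters kept held 13.269 kb (20p11.23), 13.267 kb (8p22) and 13.265 kb (8p23.1). The first 3 left out held 13.255 kb (12p13.1), 13.216 kb (7q33) and 13.215 kb (18q21.1). The TC-71 limit lay lower, at 8.973 kb. A few members missed a large TC-71 cluster only narrowly, since their best TC-71 cluster ranked between 603 and 642, and the 7q32.3 cluster (rank 621, 8.891 kb) and a 9p22.3 cluster in the band of NFIB (rank 612, 8.927 kb) were among them.

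Acetylation in TC-71 was shorter rather than missing in most of these clusters. No TC-71 domain was listed in 60 of the 371 (16.2%, interval 12.6 to 20.3%), beside 42.4% of TC-32 clusters of any size. The same 60 make up the 10.0% of all 600 large TC-32 clusters without one, because every common cluster held a TC-71 domain. With domains of a −log10 q of at least 5 alone, members without a TC-71 domain rose to 124 of 367 (33.8%, 28.96 to 38.9%). In 72 members under 10% of the TC-32 acetylated bases were also acetylated in TC-71, in 128 members 10 to 25%, in 94 members 25 to 50%, and in 17 members 50% or more. The median was 16.1%, and over all members together 17.1% of the acetylated bases were shared, against 66.6% in common clusters. The rule set this contrast. TC-71 acetylation amounted to a median of 3.18 kb per member, in a median of 2 domains, and reached 16.3 kb at most. The best TC-71 cluster of a member ranked from 601 to 1000 in 49 cases, from 1001 to 5000 in 144 and past 5000 in 118.

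**Figure D1:**
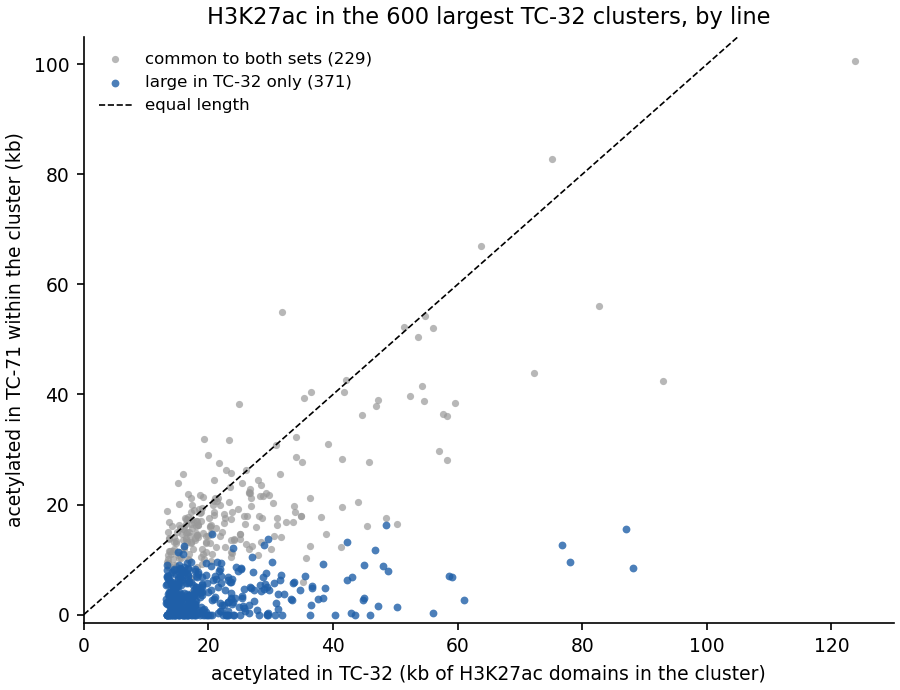
Acetylated length of each of the 600 large TC-32 clusters in TC-32 (x axis, kb) and within the same cluster in TC-71 (y axis, kb), with the 371 clusters large in TC-32 only in blue, the 229 common ones in grey and a dashed line of equal length. The blue points lie at or below 16.3 kb of TC-71 acetylation, and 60 of them lie at 0.

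**Figure D2:**
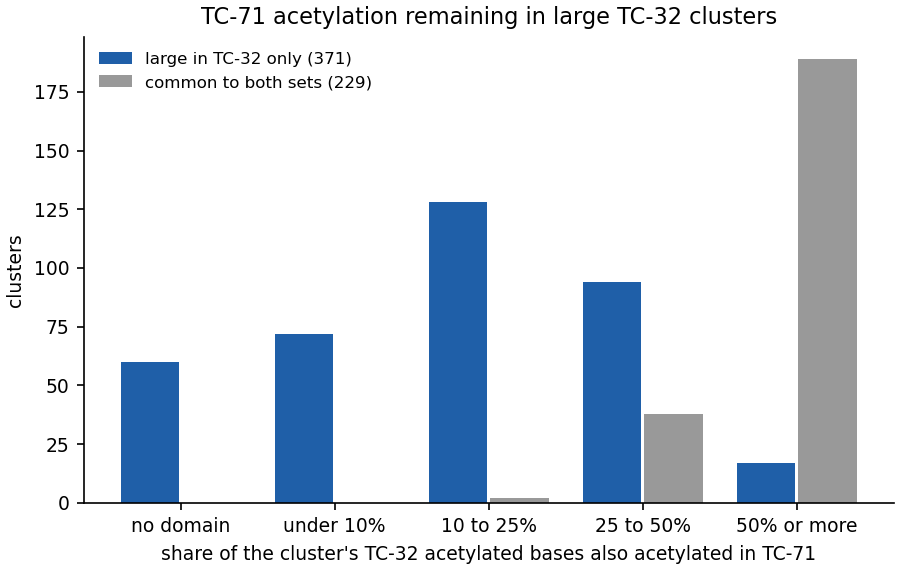
Number of clusters (y axis) by the share of their TC-32 acetylated bases that is also acetylated in TC-71 (x axis), for the 371 clusters large in TC-32 only and the 229 common ones. The most frequent class was 10 to 25% with 128 of the 371, whereas 189 of the 229 common clusters shared 50% or more, a contrast fixed by the rule.

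The strongest domain of a member was shared more often than its other domains, a contrast between domains of unlike rank. The domain with the highest −log10 q of a member met a TC-71 domain in 258 of 371 members (69.5%, 64.6 to 74.2%), while the other domains of the same members did so in 409 of 1879 cases (21.8%). In common clusters the corresponding shares were 98.3% and 65.9%. Of the 2250 TC-32 domains in members, 667 (29.6%) were shared, so 70.4% had no TC-71 domain, against 52.9% over the whole TC-32 list. The rule chose members from these same lists, so their contrasts with common clusters and with the whole list are description and not a test. By rank quartile of the domain in the TC-32 list, from the highest to the lowest, 72.1%, 38.3%, 15.4% and 5.66% of members' domains were shared, whereas 92.5%, 52.0%, 26.4% and 17.3% of all TC-32 domains were. Seen from TC-71, the 885 domains lying in members were short, with a median width of 1.17 kb, and 97.4% of them overlapped a TC-32 domain. They came from all ranks of the TC-71 list, with 14.7%, 27.3%, 28.0% and 29.9% in its 4 quartiles from highest to lowest.

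SMC1 was not used to choose the clusters. A TC-32 SMC1 peak lay in 322 of the 371 (86.8%, 82.9 to 90.1%), beside 88.5% of the 600 large TC-32 clusters. A TC-71 SMC1 peak lay in 149 (40.2%, 35.13 to 45.3%), beside 51.0% of the 600 and 68.6% of the common clusters. SMC1 of both lines was present in 146 members, of TC-32 alone in 176, of TC-71 alone in 3 and of neither in 46. By number, 827 TC-32 and 220 TC-71 SMC1 peaks lay in members, a ratio of 3.76, against 2.71 in common clusters, 1.95 in clusters large in TC-71 only and 1.79 over the whole lists. In the 50 kb on either side of the members the ratio was 1.87. The size of these ratios changed with the length of the lists, and how much of the difference follows list length was not tested. With the TC-32 list reduced to its 18264 highest peaks, the length of the TC-71 list, 175 members held TC-32 SMC1 and 149 held TC-71 SMC1, and the ratio of peaks was 1.23 (270 against 220), beside 0.917 in common clusters and 1.15 inside TC-32 domains of any kind.

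Most TC-32 SMC1 peaks in these clusters had no TC-71 SMC1 peak over them. They were absent from the TC-71 list in 618 of 827 cases (74.7%, 71.6 to 77.7%), against 67.9% (64.4 to 71.3%) in common clusters, 70.1% (69.1 to 71.1%) of all TC-32 SMC1 peaks inside acetylated domains and 49.7% of the whole list. As in other clusters, the share was higher inside domains than between them. Inside domains 588 of 746 TC-32 peaks were absent from TC-71 (78.8%, 75.7 to 81.7%), and in the gaps between domains 30 of 81 were (37.0%, 26.6 to 48.5%). The corresponding shares were 70.9% and 38.8% in common clusters and 70.1% inside and 42.6% outside domains over the whole list. These contrasts are not at equal rank. In members, 380 of the 746 peaks inside domains lay in the lowest rank quartile, against 18 of the 81 between domains. By the way the clusters were built, most of their SMC1 peaks lay in a domain, 90.2% in members and 90.7% in common clusters. By rank the members' peaks were mostly low, with 48.1% in the lowest quartile of the list and 13.18% in the highest, against 42.4% and 12.4% in common clusters. With lists of equal length the absent share was 35.6% (29.8 to 41.6%) in members, 27.9% (22.34 to 33.9%) in common clusters and 29.9% (28.3 to 31.6%) inside all TC-32 domains, so that these intervals overlap. In the other direction, 12 of 220 TC-71 SMC1 peaks in members were absent from TC-32 (5.45%, 2.85 to 9.33%), beside 9.69% of the whole TC-71 list. With lists of equal length this became 47 of 220 (21.4%, 16.1 to 27.4%).

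Absence from TC-71 followed the rank of the SMC1 peak in every kind of cluster. Inside domains, the absent share of members' TC-32 SMC1 peaks was 11.6% in the highest rank quartile, then 53.6%, 86.5% and 97.9% in the lowest. For all acetylated TC-32 SMC1 peaks the shares were 8.37%, 40.9%, 78.9% and 95.9%, and for common clusters 8.33%, 37.96%, 76.9% and 94.8%. Members thus had the highest share in every quartile, but their interval overlapped that of common clusters in each. In the second quartile the intervals were 43.9 to 63.2% in members and 28.8 to 47.8% in common clusters. Only in that quartile did the members' interval lie apart from that of all acetylated peaks (38.2 to 43.5%), which include the members' own.

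**Figure D3:**
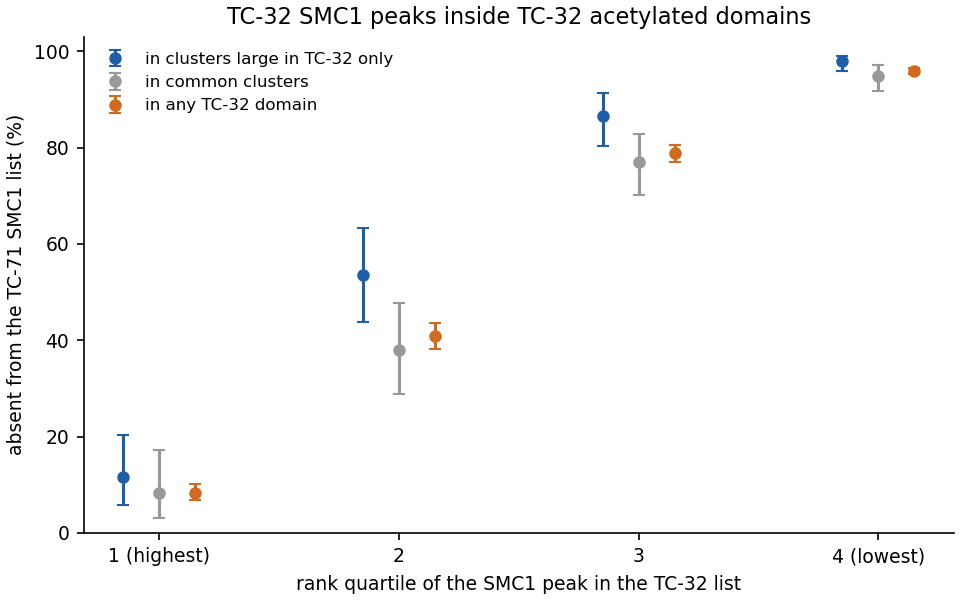
Percent of TC-32 SMC1 peaks inside TC-32 acetylated domains that had no TC-71 SMC1 peak (y axis) by rank quartile of the peak in the TC-32 list (x axis), with exact 95% intervals for counting error as bars. The share rises from 11.6% to 97.9% for clusters large in TC-32 only (blue), from 8.33% to 94.8% for common clusters (grey) and from 8.37% to 95.9% for all acetylated peaks (orange).

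The 60 clusters with no TC-71 acetylation were not empty of cohesin in TC-71. SMC1 of TC-71 was listed in 13 of them (21.7%, 12.07 to 34.2%), against 136 of the 311 members with a TC-71 domain (43.7%). TC-32 SMC1 was listed in 54 of the 60 (90.0%). They held 128 TC-32 and 15 TC-71 SMC1 peaks, and 113 of the 128 (88.3%, 81.4 to 93.3%) were absent from TC-71. In members with a TC-71 domain the absent share was 72.2%. With SMC1 lists of equal length, 34 TC-32 and 15 TC-71 peaks remained in the 60 clusters, a ratio of 2.27, and 21 of the 34 (61.8%, 43.6 to 77.8%) were absent from TC-71, against 31.8% (25.9 to 38.1%) in members with a TC-71 domain.

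Few BORIS peaks lay in the set, and the BORIS lists are short, with 534 peaks in TC-71 and 6 in TC-32. A list as short as that of TC-32 cannot show whether members lack BORIS in this line. TC-71 BORIS peaks lay in 5 of the 371 members (1.35%), beside 3.33% of the 600 and 15 of 229 common clusters (6.55%), and TC-32 BORIS lay in 0 (interval up to 0.989%). The 5 members held 6 peaks with folds over input, as the authors give them, from 4.52 to 8.90. They lay in 17q25.3, 20q11.23 (2 peaks), 5p12, 8p21.3 and 9q34.11.

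Bands of developmental transcription factors held some clusters that were acetylated in TC-32 alone or nearly so. At 12q24.21, the band of TBX5 and TBX3, 2 neighbouring members, chr12:114803379-114853565 and chr12:114867675-114920588, held 40.3 and 23.9 kb of acetylated chromatin in TC-32 and 0 kb in TC-71. Their strongest domains covered 25.7 and 10.96 kb at 9.71-fold and 9.31-fold over input, and each ranked above 99% of the TC-32 list. SMC1 was listed at 2 and 3 places in TC-32 and at none (0) in TC-71, at folds of 3.34 to 6.81. The most significant of these 5 peaks ranked above 54.2% of the TC-32 SMC1 list and no other above 17.9% of it.

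At 13q34, the band of SOX1, the cluster chr13:112710749-112759445 held 29.5 kb in 4 TC-32 domains and 0 kb in TC-71. Its strongest domain, 8.44 kb long, reached 10.6-fold and ranked above 98.6% of the list, and the longest one covered 18.2 kb at 5.54-fold. All 7 TC-32 SMC1 peaks lacked a TC-71 counterpart, with folds from 3.15 to 7.16, and the most significant of them, at 6.51-fold, ranked above 52.6% of the list. At 1q24.2, the band of PRRX1, the cluster chr1:170630389-170668908 held 27.8 kb in 6 TC-32 domains, and TC-71 had 2 short domains of 0.603 and 0.300 kb inside it. This cluster had 9 TC-32 and 0 TC-71 SMC1 peaks, and its strongest SMC1 peak, at 10.7-fold, ranked above 79.6% of the list. Both clusters thus held many listed SMC1 peaks, mostly of middle or low rank in the TC-32 list.

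Homeobox and other developmental bands named after their values were seen showed every degree of remaining acetylation. At 1q32.3, the band of PROX1, a factor of lymphatic and liver development, 25.015 kb were acetylated in TC-32 and 0 kb in TC-71, with 1 and 0 SMC1 peaks. At 2q36.1, the band of the neural crest factor PAX3, the lengths were 28.3 and 5.43 kb and the SMC1 peaks 2 and 0. The band of HAND2, a factor of heart and limb development, is 4q34.1, which held 2 members with 15.1 and 14.5 kb in TC-32 and 6.50 and 2.87 kb in TC-71. The highest folds of their TC-71 domains were 8.07 and 9.45, and their strongest TC-32 domains stood at 7.43-fold and 6.14-fold, although folds of separate lists are not on 1 scale. At 10q25.3, in the band of the eye and forebrain factor VAX1, the strongest domain of the whole set by rank (12.9-fold, above 99.97% of the TC-32 list) was shared, and 50.9% of the 23.9 kb were acetylated in TC-71.

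Clusters in HOX and distal-less bands kept part of the acetylation in TC-71, and their distance from these genes was not tested. The 7p15.2 cluster, in the band of the HOXA genes, held 14.6 kb in TC-32 and 1.92 kb in TC-71, with 1 and 0 SMC1 peaks. The 2q31.1 cluster, chr2:172947960-172967620 in the band that holds DLX1, DLX2 and the HOXD genes, held 18.7 and 4.14 kb, with 4 and 0 SMC1 peaks. In the other listed HOX bands SMC1 was more alike between the lists. The 17q21.32 cluster (chr17:46867495-46919056, band of the HOXB genes) held 14.03 and 4.38 kb, and all 3 of its TC-32 SMC1 peaks met a TC-71 peak. The 12q13.13 cluster (chr12:52416886-52448041, band of the HOXC genes and also of NR4A1) held 23.17 and 2.33 kb, with 3 and 2 SMC1 peaks. In all 4 clusters the strongest TC-32 domain had a TC-71 counterpart.

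Nuclear factor I bands held members over the whole range of lengths. Nuclear factor I proteins bind DNA as dimers and act in the development of brain, lung and muscle. The 19p13.2 cluster (band of NFIX, chr19:13093857-13207656) held 76.8 kb in TC-32, of which 47.6 kb lay in 1 domain, and 12.6 kb in 7 TC-71 domains. Its SMC1 was nearly the same in both lists, with 5 TC-32 and 4 TC-71 peaks, and the highest fold was 26.6-fold in TC-32 and 16.5-fold in TC-71. At 9p22.3 (band of NFIB) 2 neighbouring members held 44.96 and 14.98 kb in TC-32 and 8.93 and 5.75 kb in TC-71, with 11 and 2 SMC1 peaks together. The 4 members at 1p31.3 (band of NFIA) lay between chr1:63363518 and chr1:66741585. They held 14.8 to 28.9 kb in TC-32 and 0.788 to 5.09 kb in TC-71. The 2 at 19p13.3 (band of NFIC), chr19:2454630-2525834 and chr19:4367765-4405408, held 15.8 and 14.7 kb against 2.61 and 4.46 kb. All these members share a band with the named gene, and their distance from it was not tested.

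The 7q32.3 cluster, chr7:130564545-130656133, was acetylated almost without a break in TC-32. A single domain of 71.9 kb at 7.50-fold made up most of its 87.1 kb, and only 4 domains were listed. In TC-71 the same stretch held 13 separate domains of 0.181 to 4.32 kb that added up to 15.6 kb, at 5.27-fold at most. SMC1 was listed at 2 places in each line, of which 1 was common to both. Beside the 12q24.21 cluster, which is empty in TC-71, the 7q32.3 cluster shows the other form of difference: a continuous block in one list and scattered short domains in the other.

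**Figure D4:**
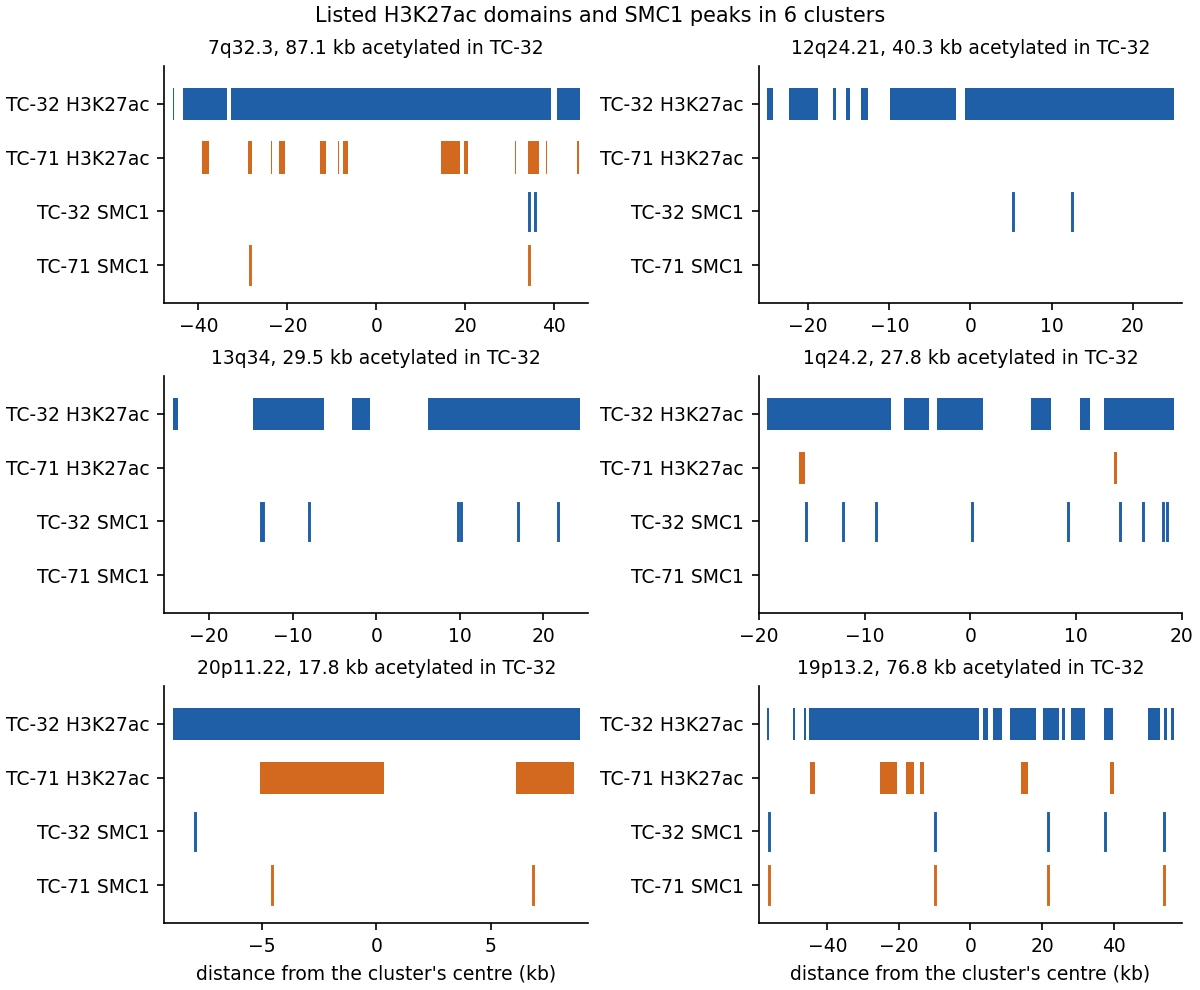
Listed H3K27ac domains and SMC1 peaks of TC-32 (blue) and TC-71 (orange) along 6 clusters, by distance from the centre of the cluster (x axis, kb); SMC1 peaks closer than the line width merge. TC-71 acetylation is missing at 12q24.21 and 13q34, reduced to 2 short domains at 1q24.2, scattered over 13 domains at 7q32.3, and covers 45.0% of the TC-32 domain at 20p11.22.

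Bands of genes known as targets or partners of the Ewing fusion differed in how much acetylation remained in TC-71. NKX2-2, a homeobox gene needed for transformation in Ewing models, lies in 20p11.22, where the 2 members held 17.8 and 16.8 kb in TC-32 and 7.996 and 8.20 kb in TC-71. The first, chr20:21486262-21504043, was 1 unbroken domain at 8.49-fold in TC-32 and split into domains of 5.45 and 2.55 kb in TC-71, the longer at 7.92-fold. SMC1 was listed there at 1 place in TC-32 (15.5-fold) and at 2 other places in TC-71 (7.74-fold and 5.25-fold), with no overlap between the lines. At 1p36.13, the band of PAX7, 1 of 2 members was a single 16.8 kb domain of TC-32 over 5.99 kb in TC-71, with 0 SMC1 peaks in either line. The other member, chr1:16467897-16503560, held 16.7 kb in 6 TC-32 domains and 1.28 kb in TC-71, with 0 TC-32 and 1 TC-71 SMC1 peaks. At 16p12.2, the band of the kinase gene PRKCB, the lengths were 17.3 and 2.66 kb, and all 3 TC-32 SMC1 peaks were shared. Of the other Ewing-related bands on the list, 11q13.3, 8q24.21 and 7p21.1 held 1 member each. These were chr11:70100741-70120304, chr8:131449662-131470722 and chr7:20390174-20412289, and their distance from the genes for which the bands were listed was not tested. The lengths of these members were 15.6, 14.4 and 13.8 kb in TC-32 and 2.48, 8.17 and 0 kb in TC-71. The bands 11q24.3 (FLI1), 22q12.2 (EWSR1), Xp21.2 (NR0B1) and 14q32.2 (BCL11B) held 0 members, as did 5q23.1, 7p12.3, 15q26.3 and 16p12.1. Among these, 14q32.2 held 4 common clusters, 16p12.1 held 2 and 15q26.3 held 1. Of the 46 bands listed for their genes, 25 held at least 1 member, 37 members in all, and 21 held a common cluster.

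Signalling and matrix bands ranged from almost no TC-71 acetylation to a large shared part. At 1q41, the band of the growth factor gene TGFB2, the member chr1:218509961-218585655 held 50.3 kb in TC-32 and 1.35 kb in TC-71, and its neighbour held 36.5 and 1.67 kb. The first had 9 TC-32 SMC1 peaks, up to 15.29-fold, of which 7 were absent from TC-71, and 2 TC-71 peaks. At 9q33.1, the band of the matrix glycoprotein gene TNC, 2 neighbouring members held 14.09 and 14.3 kb in TC-32 and 0.917 and 0.225 kb in TC-71. At 2q35, the band of the IGF-binding protein gene IGFBP2 and of the fibronectin gene FN1, 3 members held 23.201, 15.5 and 13.4 kb in TC-32 and 0, 2.49 and 0 kb in TC-71. By contrast, at 10p13, the band of the intermediate filament gene VIM, 1 member shared 49.985% of its 16.7 kb, and at 4q12, the band of the receptor kinase gene KIT, a member near the limit held 13.329 and 2.23 kb.

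The longest members by acetylated bases differed in their TC-71 state. The first, chr1:230202188-230379750 at 1q42.13, combined 38 domains over 177.6 kb and held 88.2 kb in TC-32 and 8.55 kb in TC-71, with 5 and 0 SMC1 peaks. At 9q33.3, chr9:126067303-126147651 held 56.1 kb in TC-32 and 0.211 kb in TC-71, with 5 and 2 SMC1 peaks. The members without TC-71 acetylation were led by 11q13.1 with 45.9 kb, 3p22.3 with 43.5 kb and the 12q24.21 cluster already described, followed by 18p11.32 with 36.3 kb, 9q22.1 with 31.7 kb and 4q26 with 30.6 kb. At 9q22.1 (chr9:91331049-91389846) SMC1 was nevertheless listed in TC-71, at 2 of the 9 places listed in TC-32. Both shared peaks lay in TC-32 domains, and the stronger stood at 7.45-fold in TC-32 and 6.54-fold in TC-71. At the other end, the most TC-71 acetylation in a member was 16.3 kb at 1q25.3, in 13 domains, against 48.5 kb in TC-32, and the highest shared part was 74.997%, at Xq28 (16.2 and 12.5 kb). The member with most TC-71 SMC1 peaks, at 8p21.3, held 5 beside 7 in TC-32 and was also one of the members with TC-71 BORIS.

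Members were spread over all chromosomes analysed. Chromosome 1 held 51 of its 77 large TC-32 clusters as members (66.2%), chromosome 2 held 30 of 46 and chromosome 10 held 24 of 33. The share was highest on chromosome 3, at 20 of 24 (83.3%, 62.6 to 95.3%). It was lowest on chromosome 19, at 6 of 21 (28.6%, 11.28 to 52.2%), followed by chromosome 14 with 7 of 17 (41.2%) and chromosome 6 with 9 of 21 (42.9%). Chromosome 6 held 34 clusters large in TC-71 only, while chromosome 22 held 10 members of 13 and 1 cluster large in TC-71 only. Arm 1q and chromosomes 8 and 12 can differ in copy number between Ewing lines, and copy number was not measured here; they held 28, 20 and 21 members. Without 1q and chromosomes 8 and 12, 17.8% of the acetylated bases of the remaining members were shared, beside 17.1% in all members. An effect of copy number was not tested. The bands with most members were 1q41 with 6, then 3q29 and 8p23.1 with 5 each.

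**Figure D5:**
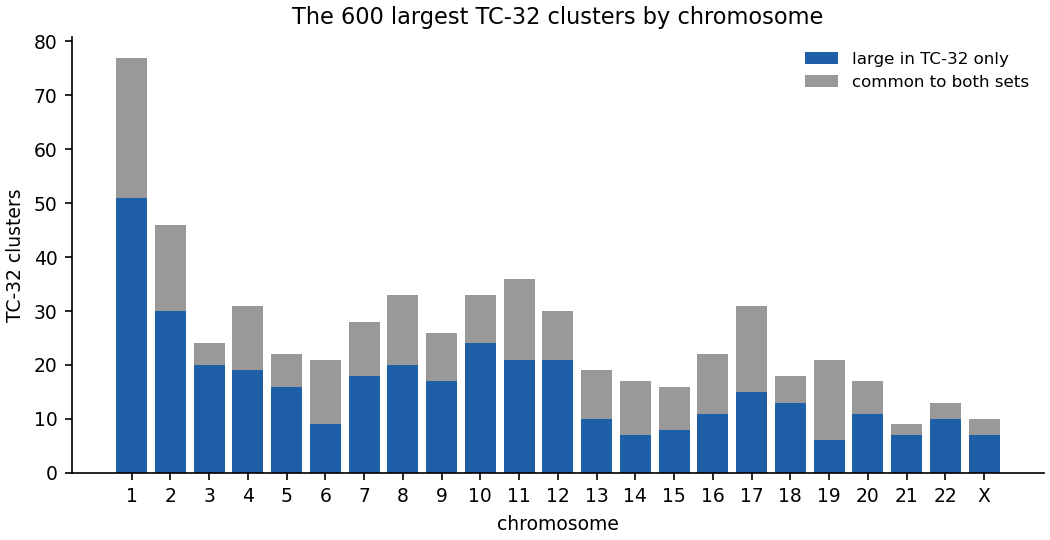
Number of the 600 large TC-32 clusters (y axis) on each chromosome (x axis), divided into those large in TC-32 only (blue) and those common with TC-71 (grey). Of the 77 on chromosome 1, 51 are large in TC-32 only, and the blue part ranges from 6 clusters on chromosome 19 to 51 on chromosome 1.

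Members also lay beside each other. Within 250 kb, 104 of the 371 had another member as neighbour and formed 47 groups, of which 10 held 3 members, while 267 stood alone. No such count is given here for common clusters, so the grouping cannot be called particular to members. At 10q21.2, the band of the chromatin regulator gene ARID5B, 3 members held 85.8 kb of acetylated bases in TC-32, of which 3.68% were acetylated in TC-71. The pair at 9q33.3 held 117 kb with 2.47% shared, and the pair at 1q42.13 held 121 kb with 9.39% shared. In 8q22.1 a pair held 29.8 kb, with 0 kb in TC-71 and SMC1 at 2 places in TC-32 and 0 in TC-71, the second group beside 12q24.21 in which TC-71 acetylation was missing altogether.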

How the data were processed

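Chromatin immunoprecipitation with sequencing was run on TC-32 and TC-71 cells, per the labels' protocols. Tools listed in the submitters' processing notes are MACS2 2.1.1, STAR 2.5.1b, deepTools 2.2.4, SAMtools 1.3.1 and Picard, with the build hg19; the sources used here give no roles, no settings and no account of how samples were combined. The deposited lists give each peak a score (10 times the −log10 q), a −log10 q, a −log10 p and a fold enrichment ratio over input. These are the authors' values and were used only to rank, filter or describe peaks within a list. A deeper library gives a longer list, and depth per sample is unknown.

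Narrow peaks with several summits were counted once. Overlap meant at least 1 bp, and coordinates count from 1. A rank is the share of the list with a lower −log10 q. Bands came from circlize 0.4.16 for hg19. All 47 genes used as names of bands were found on the same chromosome in the RefSeq table of GRCh38.p14, another build, so no overlap with a gene was tested. The members and the lists were chosen with earlier results of these data known. Named members are the 20 longest, the 10 longest without a TC-71 domain, the 5 with most TC-71 acetylation, TC-32 SMC1 or TC-71 SMC1, those with BORIS, those at the limit and those in 46 listed bands; the text names a part, and bands outside the rule were chosen after their values were seen. Stitching and overlap code was tested on simulated lists. Python 3.11.15, numpy 2.4.6, pandas 2.3.3, scipy 1.17.1, matplotlib 3.10.9 and R 4.3.3 were used.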

Additional observations from a re-analysis of the deposited data

How the results depend on the processing

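No paired analysis was possible because both samples of a line and antibody share 1 list, and for the same reason no replicate could be left out. Of 92 values recomputed under other settings, 57 moved by less than their counting interval or, for the count of members, by less than 1.5 times, and 35 moved further. For shared bases that interval took single bases as units, which are not independent, and ran only from 17.07 to 17.13%. Any setting that changed the share of shared bases was therefore counted as moved, however small the change. Values that moved are given in the order no TC-71 domain, shared bases, members with TC-32 SMC1, members with TC-71 SMC1, TC-32 SMC1 absent from TC-71 in members and the same in common clusters, as far as each moved. Stitching at 5 kb gave 20.7%, 19.1%, 76.4%, 28.3%, 79.6% and 74.7%. Domains with a −log10 q of at least 5 gave 33.8%, 14.6%, 80.1%, 31.9%, 78.1% and 71.4%. Keeping 300 clusters per line left 187 members, with 19.7% of bases shared, TC-32 SMC1 in 94.1% and TC-71 SMC1 in 50.3%. Keeping 900 gave 16.6%, 82.3% and 33.4% for the same shares. Shared bases were 18.6% with clusters ranked by length times fold, 17.8% without 1q and chromosomes 8 and 12, and 13.02% with 1200 TC-71 clusters, a setting chosen after seeing the data. H3K27ac lists of equal length gave 18.1% shared bases, TC-71 SMC1 in 34.8% and 77.7% of SMC1 absent. SMC1 peaks with a −log10 q of at least 5 gave TC-32 SMC1 in 78.4% and 69.4% absent. SMC1 lists of equal length gave TC-32 SMC1 in 47.2%, 35.6% absent in members, 27.9% in common clusters, and 21.4% of TC-71 SMC1 absent from TC-32. Sharing at 50% of the peak gave 79.9% and 74.4% absent in members and common clusters, and counting SMC1 in TC-32 domains alone gave TC-71 SMC1 in 31.8% and 78.8% absent. The absent share was higher in members than in common clusters in 13 of 13 settings, by 2.83 to 8.28 percentage points. The settings re-cut the same lists and are not independent of each other. In some the intervals overlapped, as with 300 clusters per line, at 68.8 to 76.5% in members and 65.3 to 74.2% in common clusters. Exchanging the TC-71 clusters tied at the limit, also tried after seeing the data, changed no value. The lists carry no read counts, so a missing peak may lie below the calling threshold at the depth of that library.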
